A study of Mus musculus with 4 samples.

Results

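The 33 mouse genes described here encode the chaperones, folding enzymes, degradation factors and stress sensors of the endoplasmic reticulum (ER), the compartment in which secreted and membrane proteins are folded. They were taken as a list of gene symbols, and each gene probe on the arrays was tied to a symbol through its transcript accession. All 33 genes had at least 1 probe (43 probes in all), out of 36838 gene names on the arrays. Of these names 20891 are gene symbols, and the others are identifiers of probes with no matched symbol. Shares over all genes or gene names below count both kinds. 2 of them have newer symbols, Ero1l being Ero1a and Ero1lb being Ero1b. The genes fall into 5 arms by role, namely 4 sensors and transcription factors, 11 chaperones, 6 disulfide enzymes, 8 degradation factors and 4 genes of the translocon, the channel through which new proteins enter the ER.

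The arrays come from a study of small molecules that raise chaperone-mediated autophagy (CMA), a route by which selected cytosolic proteins are carried into lysosomes. To ask how these molecules act on gene expression, NIH-3T3 cells, an established line of mouse embryonic fibroblasts, were profiled on 4 one-colour Agilent arrays. The untreated culture received no compound. The other cultures received 20 µM of AR7, of CA39 or of CA77 for 24 h, where CA39 and CA77 are analogues developed from AR7. All cells were grown to confluence in serum-containing medium and are labelled as wild type. Each group is 1 culture on 1 array, so every difference below compares 1 array with another, has no replicate check and was not tested. The compounds were dissolved in DMSO and the control is labelled with no treatment, so in a difference shared by the treated arrays the solvent and the compounds cannot be told apart. On the slide, row 1 held the untreated array and row 2 held all treated arrays, and CA77 was read in scan 2 and the other arrays in scan 1. Slide row and scan therefore cannot be told apart from the groups either.

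When unfolded proteins build up in the ER, a set of membrane sensors starts the unfolded protein response. IRE1 (gene Ern1) splices the messenger RNA of Xbp1, ATF6 is cut to release a transcription factor, and PERK (gene Eif2ak3) phosphorylates eIF2α, which slows protein synthesis and raises translation of ATF4. ATF6 and XBP1 raise transcription of chaperones and of ER-associated degradation factors, while ATF4 and its partner CHOP (gene Ddit3) act on amino acid supply, redox and survival genes. Fibroblasts secrete collagen and fibronectin and so carry a steady folding load. The arrays measure messenger RNA abundance only and do not report Xbp1 splicing, ATF6 cleavage or eIF2α phosphorylation.

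ATF6 binds a promoter sequence called the ER stress element (ERSE), written as CCAAT, then 9 bases of any kind, then CCACG. The shorter ERSE-II, written as ATTGG, then 1 base of any kind, then CCACG, serves the same pathway. Both were searched on both strands of the 250 bases before each annotated start (RefSeq, mouse assembly GRCm38.p6), where 28 of the 33 genes had an entry. Atf6, Derl1, Hyou1, Manf and Sec61a1 had none. The ERSE letters were present in 10 of the 29 promoters of these genes (34.5%), against 37 of 32851 promoters of the same length in the assembly (0.113%). The matches are shown because they mark the genes of the list whose promoters share a sequence. Each is written 5′ to 3′ along its own strand, with the fixed letters in capitals.
Hspa5: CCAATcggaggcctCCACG, chr2:34772025-34772043, plus strand
Hsp90b1, farther from the start: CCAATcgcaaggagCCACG, chr10:86705638-86705656, minus strand
Hsp90b1, nearer to the start: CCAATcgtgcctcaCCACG, chr10:86705533-86705551, plus strand
Calr: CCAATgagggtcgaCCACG, chr8:84847075-84847093, plus strand
Canx: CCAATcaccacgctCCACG, chr11:50325800-50325818, minus strand
Dnajc3: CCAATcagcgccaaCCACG, chr14:118937827-118937845, plus strand
Creld2: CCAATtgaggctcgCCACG, chr15:88819520-88819538, minus strand
Pdia6: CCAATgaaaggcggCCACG, chr12:17266491-17266509, plus strand
Ero1lb: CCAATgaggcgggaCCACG, chr13:12565682-12565700, minus strand
Derl3: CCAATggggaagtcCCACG, chr10:75893242-75893260, minus strand
Syvn1: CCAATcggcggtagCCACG, chr19:6046532-6046550, plus strand
The 9 bases between the fixed letters differed from gene to gene, and the sites of Calr, Creld2, Ero1lb, Derl3 and the nearer site of Hsp90b1 run opposite to their gene. By role, 6 of these 10 genes are chaperones, 2 are disulfide enzymes and 2 are degradation factors. ERSE-II was found in the promoter of Herpud1 alone among these genes (3.45% of their promoters) and in 10 of all 32851 (0.0304%). A match is a run of letters and not a shown binding site.

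The promoters of Hspa5 and Herpud1 are given whole, since the level of Hspa5 was lower on every treated array than on the untreated one and Herpud1 had the largest difference of the list in size. Capitals mark the ERSE of Hspa5, which spans bases 65 to 47 before the start, and the ERSE-II of Herpud1, which spans bases 52 to 42. The windows are chr2:34771840-34772089 and chr8:94386179-94386428, both on the plus strand of GRCm38.p6.
Hspa5: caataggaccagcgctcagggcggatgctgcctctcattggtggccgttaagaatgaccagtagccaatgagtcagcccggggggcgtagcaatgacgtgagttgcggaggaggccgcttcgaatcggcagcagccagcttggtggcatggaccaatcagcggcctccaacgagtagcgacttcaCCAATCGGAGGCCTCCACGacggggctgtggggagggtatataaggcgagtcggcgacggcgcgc
Herpud1: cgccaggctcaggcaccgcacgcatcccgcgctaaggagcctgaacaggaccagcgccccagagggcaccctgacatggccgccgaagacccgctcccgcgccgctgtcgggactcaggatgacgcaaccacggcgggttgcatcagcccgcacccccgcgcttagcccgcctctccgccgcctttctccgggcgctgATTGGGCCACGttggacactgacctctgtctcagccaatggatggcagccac

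Levels below are log2 spot intensities after background correction and quantile normalization, and a log2 difference of 1 is a 2-fold difference. The share of all 55378 probes that exceeded background clearly was larger for the untreated array (69.7%) than for AR7 (52.9%), CA39 (52.2%) or CA77 (61.6%). Of the 33 genes, 32 were well above background on all 4 arrays. The fibroblast markers Col1a1, Col1a2, Vim, Fn1, Thy1 and S100a4 were detected on every array and Pdgfrb on CA39 only. Of the markers of other cell types, Cdh1 and Alb were detected on no array, Epcam on CA39 only, Ptprc on untreated and CA77, and the endothelial markers Pecam1 and Cdh5 on all arrays. The only repeat measurements are probes printed 10 times on each array. With spots taken as independent between arrays, their spot-to-spot SD gives a difference between arrays an SD of 0.16 (log2). This is called the spot error here, and it leaves out all variation between cultures. Spots at the same position were not paired. Those of Creld2 read high or low together on untreated, CA39 and CA77, so differences at the same position can spread less than the spot error. Across all genes the spot error was exceeded by 41.2% of the differences from untreated for AR7, by 53.7% for CA39 and by 49.8% for CA77, so a difference past the spot error is common on these arrays.

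The 33 genes showed small differences from untreated, of either sign, with every compound. The median size of the log2 difference, whatever its sign, was 0.15 with AR7 (0.12 over all genes), 0.21 with CA39 (0.18) and 0.16 with CA77 (0.16), and 18, 13 and 14 of the 33 genes lay within the spot error. The 18 with AR7 include Derl3, whose reading there is an upper limit, so its difference may be larger. With AR7 the median log2 difference from untreated was -0.15, against -0.03 over all 27855 gene names compared, and 25 of 33 genes lay below 0 (55.8% of all gene names). With CA39 the median was 0.05 against -0.02 over all genes, with 18 genes above 0 (36.4% of all gene names) and 15 below (53.2%). With CA77 the median was -0.06 against -0.04, with 20 genes below 0 (56.4%). A gene name detected on the untreated array alone could only count as 0 or below, and that array detected the largest share of probes. Of the list, 32 of 33 genes were detected on all 4 arrays. The shares over all gene names, here and below, are therefore not like for like with the list. No gene of the list differed from untreated by 2-fold with any compound, while the share of all genes that did was 3.06% (AR7), 5.29% (CA39) and 3.22% (CA77).

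At lower cutoffs few genes stood out, and most of those that did with AR7 were chaperones. No gene passed 1.5-fold with AR7 (6.51% of all genes) or with CA77 (7.79%). With CA39, 2 genes passed it (11.8% of all genes), Herpud1 on the high side and Ero1lb on the low side. Past 2 times the spot error, AR7 had 7 genes lower and 0 higher, against 11.4% and 6.62% of all genes. These were Hspa5, Sdf2l1, Creld2, Manf, Atf6, Edem2 and Syvn1, of which 4 are chaperones. CA39 had 5 genes higher and 4 lower at that cutoff (12.8% and 17.2% of all genes), and CA77 had 1 higher and 1 lower (9.02% and 13.8%).

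**Figure D1:**
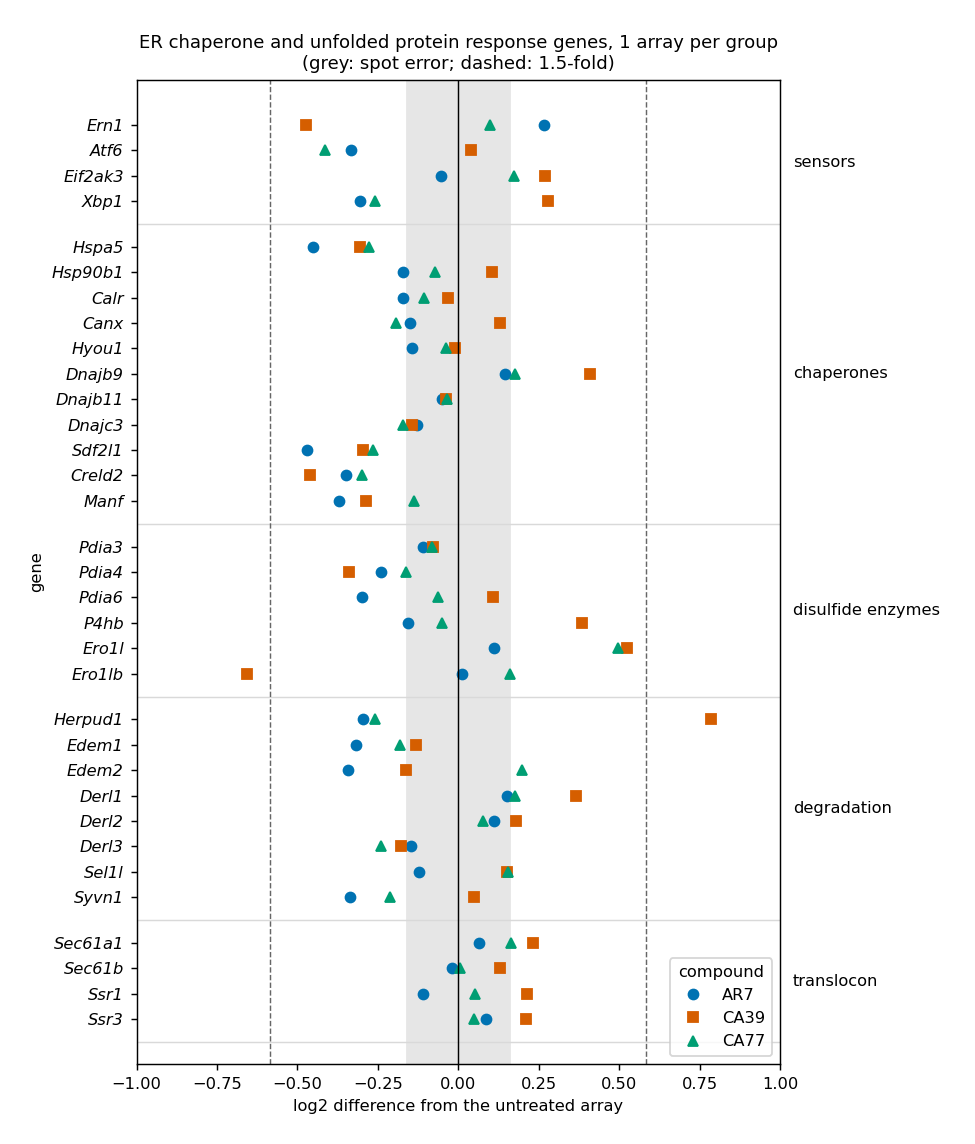
Log2 difference from the untreated array (horizontal axis) for each of the 33 genes (vertical axis, grouped by arm), with a circle for AR7, a square for CA39 and a triangle for CA77, 1 array per group. The grey band is the spot error of 0.16 on either side of 0 and the dashed lines are 1.5-fold. Only the CA39 squares of Herpud1 (0.79) and Ero1lb (-0.66) lie outside the dashed lines. The Derl3 points are bounds, since that probe was not well above background on the treated arrays.

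The sensors did not share a direction, and Xbp1, Ern1 and Atf6 each had its own pattern. Xbp1, the transcription factor activated by IRE1, had log2 levels of 15.48 (untreated), 15.18 (AR7), 15.76 (CA39) and 15.22 (CA77). Its log2 differences from untreated were -0.30 for AR7, 0.28 for CA39 and -0.26 for CA77, so the CA39 array was high and the other treated arrays low. Ern1, which encodes the splicing sensor IRE1, ran the other way, with log2 levels of 10.05 (untreated), 10.32 (AR7), 9.58 (CA39) and 10.15 (CA77). Its log2 differences were 0.27 for AR7, -0.47 for CA39 and 0.10 for CA77, and CA39 alone was below untreated.

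Atf6, the sensor that is cut into a transcription factor, had log2 levels of 10.62 (untreated), 10.29 (AR7), 10.66 (CA39) and 10.21 (CA77). Untreated and CA39 lay within the spot error of each other (log2 difference 0.04), and AR7 and CA77 were lower (-0.33 and -0.42). Eif2ak3, which encodes the kinase PERK, read 11.89 (untreated), 11.84 (AR7), 12.16 (CA39) and 12.06 (CA77) as log2 levels. Its log2 differences were -0.05, 0.27 and 0.17 in that order of compounds, so AR7 was within the spot error and the other arrays a little above it. As an arm, the sensors had a median log2 difference of -0.18 (AR7), 0.15 (CA39) and -0.08 (CA77). These medians rest on 4 genes that differ from each other by more than the medians, and they change sign when only Ern1 and Eif2ak3, the sensors printed in the lower part of the slide, are kept (0.11, -0.10 and 0.14).

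Among the chaperones, Hspa5, Sdf2l1 and Creld2 were lower than untreated by more than the spot error on every treated array. Hspa5 encodes BiP, the Hsp70 chaperone of the ER that also holds the stress sensors inactive. Its log2 level was 17.04 (untreated), 16.59 (AR7), 16.74 (CA39) and 16.77 (CA77). The log2 differences were -0.45, -0.31 and -0.28, which put the treated arrays at 0.731, 0.809 and 0.825 times the untreated intensity. The untreated array was the highest, and the treated arrays spanned 0.17 on the log2 scale (AR7 to CA77).

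Sdf2l1, a partner that keeps substrates of BiP soluble, showed the same order. Its log2 levels were 12.08 (untreated), 11.61 (AR7), 11.78 (CA39) and 11.82 (CA77), with log2 differences of -0.47, -0.30 and -0.26. Manf, a secreted ER protein that binds BiP, had log2 levels of 14.56, 14.19, 14.28 and 14.43 in the same order of arrays. Its log2 differences were -0.37 for AR7, -0.29 for CA39 and -0.14 for CA77, the last within the spot error. On CA39 the spots around the Manf probe had a median log2 difference of -0.19, past the spot error, and the difference of Manf there was -0.10 once that median was taken off.

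Creld2, an ER-stress-responsive protein with disulfide isomerase activity, is the gene of the list whose probe was printed 10 times, so its own spot error is known. Its mean log2 level was 15.38 ± 0.13 on untreated (SD of 10 spots), 15.03 ± 0.14 on AR7 (9 spots), 14.92 ± 0.10 on CA39 (10 spots) and 15.08 ± 0.12 on CA77 (10 spots). Single spots ran from 15.20 to 15.53 on untreated, 14.85 to 15.21 on AR7, 14.77 to 15.05 on CA39 and 14.90 to 15.21 on CA77. The highest spots of AR7 and CA77 thus reached the lowest untreated spot, and the CA39 spots did not overlap with the untreated ones. That overlap is between spots at different positions. At the same position, every spot of CA39 and of CA77 read below its untreated spot. The log2 differences were -0.35 ± 0.0625 for AR7, -0.46 ± 0.0514 for CA39 and -0.30 ± 0.0555 for CA77 (standard error from spots, not paired by position). These errors cover 1 array each and say nothing of other cultures.

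**Figure D2:**
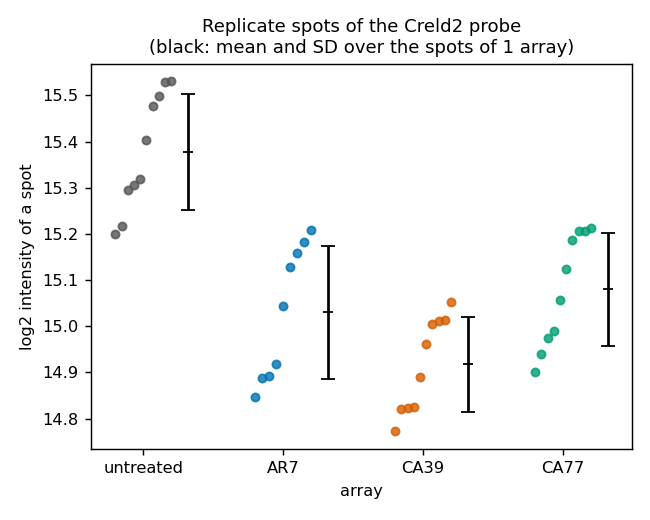
Log2 intensity (vertical axis) of every spot of the Creld2 probe on the 4 arrays (horizontal axis), sorted by value within an array, with the mean and SD over the spots of that array in black. The untreated spots begin at 15.20, above all CA39 spots, while the highest AR7 and CA77 spots reach 15.21.

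Most of the other chaperones stayed near their untreated levels. Hsp90b1, which encodes the ER Hsp90 GRP94, had log2 levels of 16.76 (untreated), 16.59 (AR7), 16.86 (CA39) and 16.68 (CA77). Its log2 difference with AR7 was -0.17, or -0.33 with arrays scaled to the 75th percentile, and that with CA39 went from 0.11 to -0.08. The lectin chaperones Calr and Canx, which hold newly made glycoproteins, had log2 differences between -0.17 and -0.03 (Calr) and between -0.19 and 0.13 (Canx). Hyou1, a large Hsp70 relative that serves as a nucleotide exchange factor for BiP, ranged from -0.14 to -0.01. For the J-domain partners of BiP, the log2 differences of Dnajb11 were -0.05, -0.04 and -0.03, and those of Dnajc3 were -0.13, -0.14 and -0.17. Dnajb9, the J-domain protein that returns IRE1 to its resting state, had log2 levels of 11.42, 11.57, 11.83 and 11.60 in the same order of arrays, with log2 differences of 0.15, 0.41 and 0.18. A second Dnajb9 probe gave 0.07, 0.06 and 0.21, so both probes were above untreated on each treated array and the size with CA39 depends on the probe.

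As an arm the 11 chaperones had a median log2 difference of -0.17 (AR7), -0.04 (CA39) and -0.14 (CA77). With AR7 and with CA77, 10 of the 11 lay below 0, against 55.8% and 56.4% of all gene names. With CA39, 8 of 11 did, against 53.2%.

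**Figure D3:**
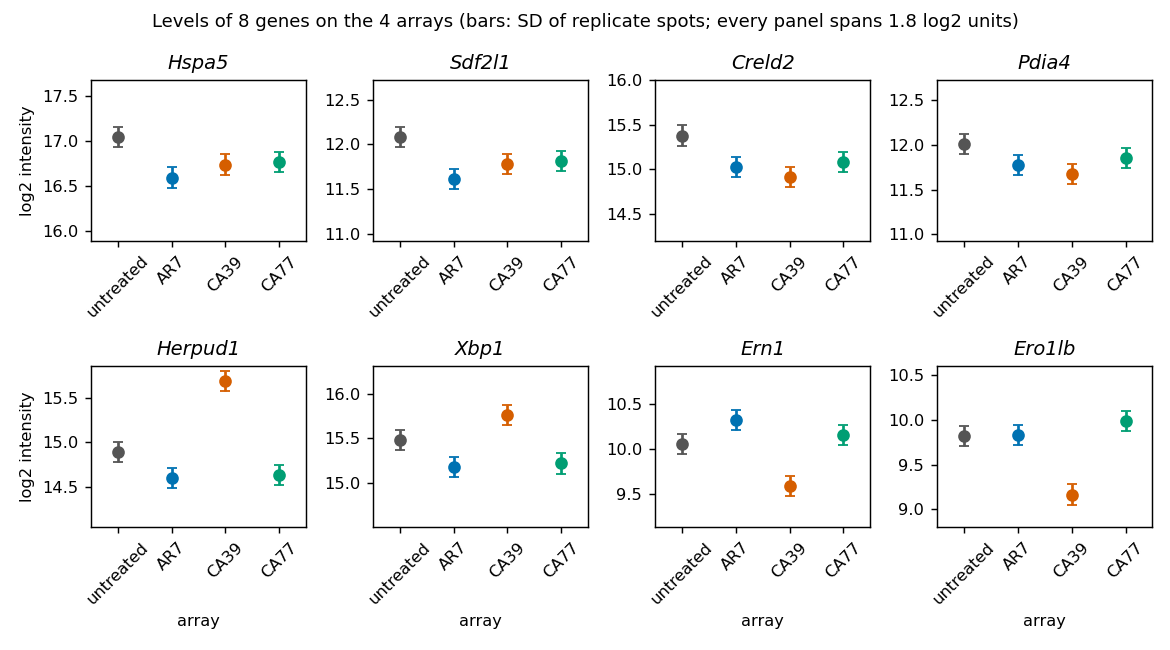
Log2 level on each of the 4 arrays (horizontal axis) for 8 genes, with 1 panel per gene and the same height of log2 intensity in every panel. Bars are the typical SD of replicate spots on these arrays, taken from probes printed 10 times, and not an error between cultures. The untreated array is highest for Hspa5, Sdf2l1, Creld2 and Pdia4. CA39 is highest for Herpud1 and Xbp1, and lowest for Ern1 and Ero1lb.

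The disulfide enzymes lay on both sides of untreated with CA39. The median size of their log2 difference, whatever its sign, was 0.13 (AR7), 0.36 (CA39) and 0.12 (CA77), though single genes did not all follow that order. Ero1l, the oxidase that recharges protein disulfide isomerase, had log2 levels of 11.14 (untreated), 11.25 (AR7), 11.66 (CA39) and 11.64 (CA77). Its log2 differences were 0.11 for AR7, 0.52 for CA39 and 0.50 for CA77, so CA39 and CA77 lay within the spot error of each other and above the other arrays. Ero1lb, its paralogue, had log2 levels of 9.82, 9.83, 9.17 and 9.99 in the same order, with CA39 alone below the rest. The log2 difference with CA39 was -0.66, or 0.634 times the untreated intensity, against 0.01 with AR7 and 0.16 with CA77.

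P4hb encodes protein disulfide isomerase, which is also a subunit of collagen prolyl hydroxylase. Its log2 levels were 15.85 (untreated), 15.69 (AR7), 16.23 (CA39) and 15.80 (CA77), with CA39 the highest (log2 difference 0.38, or 0.22 with the deposited series table scaled to the 75th percentile). In the same cultures the collagen genes Col1a1 and Col1a2 had log2 differences of 1.06 and 0.29 with CA39, -1.04 and -0.37 with AR7, and -0.83 and -0.35 with CA77. The other fibroblast markers detected on every array ran, with CA39, from -0.22 (S100a4) through 0.20 (Vim) and 0.58 (Thy1) to 1.47 (Fn1), and their part in the ER gene values was not tested. Pdia4, another disulfide isomerase, had log2 levels of 12.01, 11.77, 11.67 and 11.85 and was lower than untreated on all treated arrays (log2 differences -0.24, -0.34 and -0.16). Pdia3, the isomerase that works on glycoproteins with calnexin and calreticulin, had log2 differences of -0.11, -0.08 and -0.08, all within the spot error. Pdia6 had -0.30 for AR7, 0.11 for CA39 and -0.06 for CA77, where its second probe gave -0.43, 0.07 and -0.42. The 2 probes thus differ for CA77 by more than the spot error.

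Hspa5, Sdf2l1, Creld2 and Pdia4 are the 4 genes of the list that were lower than untreated by more than the spot error with all 3 compounds. Over all gene names 9.79% met the same condition, which is near the share in the list. The share over all names includes names detected on the untreated array alone, whose differences could only be 0 or lower. Pdia4 met it narrowly, since its difference with CA77 ranged from -0.16 to -0.13 over the other processings. No gene of the list was higher past the spot error with all 3, against 2.75% of all genes. The comparisons share the untreated array, so a high reading on that array alone would place a gene in the first set.

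Among the 7 degradation factors detected on every array, Herpud1 had the largest differences with CA39 and CA77. Herpud1 encodes an ER membrane protein that assembles the ubiquitin ligase complex for misfolded proteins. Its log2 levels were 14.90 (untreated), 14.60 (AR7), 15.68 (CA39) and 14.64 (CA77). With CA39 the intensity was 1.72 times the untreated value (log2 difference 0.79), while AR7 and CA77 were lower (-0.30 and -0.26). The spots around the probe showed median log2 differences between -0.05 and -0.02, and over the 9 other processings the CA39 difference ranged from 0.63 to 0.80.

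With AR7, Edem2, Syvn1 and Edem1 lay farther from untreated than Herpud1. Syvn1, which encodes the ubiquitin ligase HRD1, had log2 levels of 15.23 (untreated), 14.90 (AR7), 15.28 (CA39) and 15.02 (CA77), with AR7 and CA77 lower (-0.34 and -0.21). Sel1l, the adaptor of HRD1, had log2 differences of -0.12, 0.15 and 0.15, all within the spot error. Of the lectins that draw glycoproteins into degradation, Edem1 had log2 differences of -0.32, -0.13 and -0.18. Edem2 had log2 levels of 10.28 (untreated), 9.94 (AR7), 10.12 (CA39) and 10.48 (CA77), so CA77 was above untreated and AR7 below it. The derlins help move proteins out of the ER, and Derl1 and Derl2 were above untreated on every treated array (log2 differences from 0.15 to 0.37 and from 0.08 to 0.18). Another probe of Derl1 gave -0.14 with CA77, and another of Derl2 gave -0.24 with AR7 and -0.13 with CA77, so these signs depend on the probe. Derl3 was well above background on the untreated array only, at a log2 level of 6.38, and its treated readings of 6.24, 6.20 and 6.14 are upper limits. Over the 8 genes the median log2 difference was -0.22 (AR7), 0.10 (CA39) and -0.05 (CA77).

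The translocon genes were the most even arm. Sec61a1 and Sec61b encode subunits of the protein-conducting channel, and Ssr1 and Ssr3 encode subunits of the TRAP complex beside it. Sec61a1 had log2 levels of 16.67 (untreated), 16.74 (AR7), 16.90 (CA39) and 16.84 (CA77). With CA39 the brightest probe of all 4 genes was above untreated, at log2 differences of 0.23 (Sec61a1), 0.13 (Sec61b), 0.21 (Ssr1) and 0.21 (Ssr3). With AR7 they ran from -0.11 to 0.09 and with CA77 from 0.00 to 0.16. Other probes moved some of these values by more than the spot error. For Ssr1 they gave -0.41 and -0.34 with AR7, -0.15 and -0.36 with CA77, and 1 of them gave -0.09 with CA39. For Sec61b the other probe gave 0.19 with CA77. Over the arm the median log2 difference was 0.02 (AR7), 0.21 (CA39) and 0.05 (CA77).

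**Figure D4:**
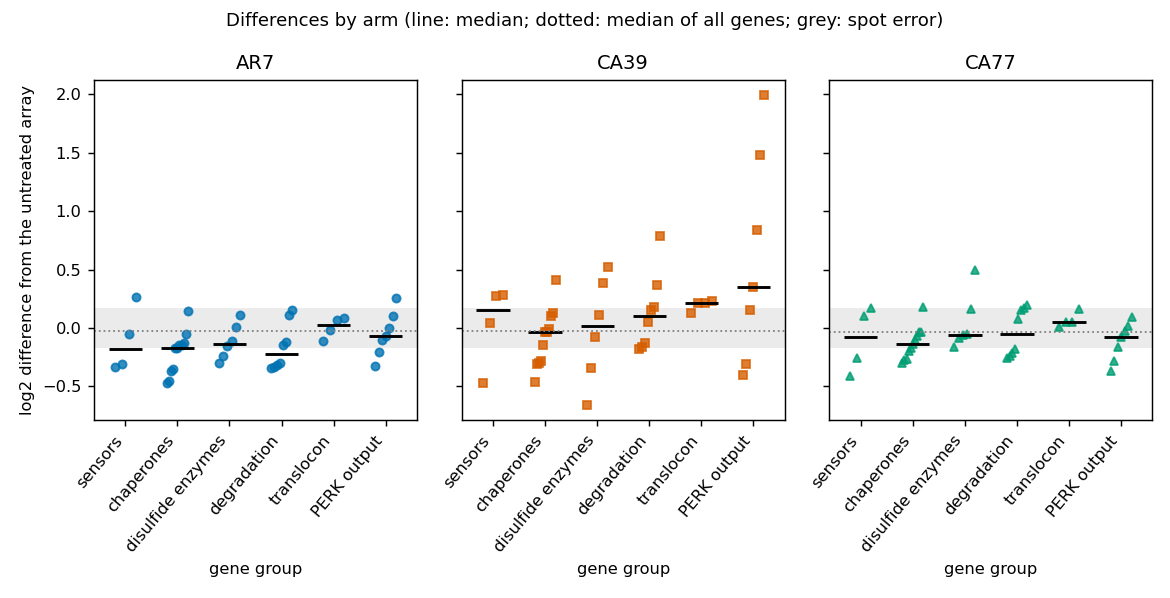
Log2 difference from the untreated array (vertical axis) for every gene of each arm and for the PERK output genes outside the list (horizontal axis), with 1 panel per compound. Points are genes, black lines are arm medians, the dotted line is the median of all genes compared and grey is the spot error. The CA39 panel has the widest spread, and its highest points are Chac1 (1.99) and Trib3 (1.48).

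The genes with the ERSE letters in the promoter were compared with the others as a description. The 10 ERSE genes had a median log2 difference of -0.17 (AR7), -0.09 (CA39) and -0.18 (CA77), with 9, 6 and 9 of them below 0 (55.8%, 53.2% and 56.4% of all gene names). The 18 genes with a promoter entry and no complete ERSE in the window had medians of -0.11, 0.17 and 0.03, with 13, 7 and 8 of them below 0. Herpud1, 1 of these, held ERSE-II and was the highest gene with CA39, whereas Hspa5 with its ERSE was lower there. The window of Herpud1 ends in CCAAT, 9 bases and CCAC, all the ERSE letters but the last. An ERSE running past the window was not searched for, so Herpud1 cannot be taken as a gene without ERSE. Derl3 is counted among the ERSE genes by its bound. The UPRE (TGACGTGG), a sequence bound by XBP1 and ATF6, was in none of the promoters of these genes and in 0.563% of all promoters. The same held for the CARE (TGATGNAAT), a sequence bound by ATF4, which was in 0.816% of all promoters. This says only that these letters are not in the windows read.

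A second list held 68 further genes of the ER and the unfolded protein response, of which 67 could be compared. Its median log2 difference was -0.02 (AR7), 0.14 (CA39) and -0.01 (CA77). Past 2 times the spot error it had 0 genes higher and 2 lower with AR7, 18 higher and 2 lower with CA39, and 1 higher and 4 lower with CA77. Of all genes, 6.62% were higher and 11.4% lower at that cutoff on the AR7 array, 12.8% higher and 17.2% lower on CA39, and 9.02% higher and 13.8% lower on CA77. Past 1.5-fold it had 4 of 67 genes with CA39, a smaller share than the 11.8% of all genes, and they were Chac1, Trib3, Ddit3 and Spcs3, all higher. Chac1, Trib3 and Ddit3 act in the output of PERK and are known targets of ATF4, and Spcs3 encodes a subunit of signal peptidase.

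Of the PERK output, Chac1, Trib3 and Ddit3 read higher on CA39 than on the other arrays. Chac1, a glutathione-degrading enzyme, had log2 levels of 13.41 (untreated), 13.42 (AR7), 15.41 (CA39) and 13.05 (CA77). Trib3, a pseudokinase that feeds back on ATF4, had log2 levels of 14.58, 14.68, 16.05 and 14.55 in the same order. For Ddit3, which encodes CHOP, the log2 levels were 11.46, 11.40, 12.30 and 11.39. All these genes were within the spot error of untreated with AR7. With CA77 the log2 differences were -0.36 for Chac1, -0.02 for Trib3 and -0.07 for Ddit3.

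The remaining genes grouped with the PERK output showed no shared direction across the arrays. Atf4 itself, which is controlled chiefly in translation, had log2 differences of -0.11 (AR7), 0.35 (CA39) and -0.17 (CA77). Its CA39 value was 0.18 with 75th percentile scaling, and a second probe gave -0.33 with CA77. Ppp1r15a, the stress-induced subunit that directs removal of the phosphate from eIF2α, had 0.26, 0.16 and 0.09. Its constitutive relative Ppp1r15b had -0.33, -0.40 and -0.29. Eif2s1, which encodes eIF2α, had -0.20, -0.31 and 0.02, where a second probe gave -0.47, -0.53 and -0.93. Atf3 was detected on no array. Spcs3 had log2 levels of 14.93 (untreated), 14.57 (AR7), 15.69 (CA39) and 14.69 (CA77), and a second probe gave a log2 difference of 0.56 with CA39 in place of 0.76.

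The CA39 array therefore held genes of the pathway on both sides of untreated. Herpud1 (log2 difference 0.79) and the PERK output genes Chac1 (1.99), Trib3 (1.48) and Ddit3 (0.83) were above it, while the chaperones Hspa5 (-0.31), Sdf2l1 (-0.30) and Creld2 (-0.46) and the isomerase Pdia4 (-0.34) were below it on the same array. The sides did not follow the arms, since the chaperone Dnajb9 (0.41) and the disulfide enzymes Ero1l (0.52) and P4hb (0.38) were above untreated. Of the genes grouped with the PERK output, Ppp1r15b (-0.40), which is constitutive, and Eif2s1 (-0.31), which encodes eIF2α itself, were below it.

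The 3 compounds were given at the same dose and time, so their arrays were also set against each other for the 32 genes detected throughout, which makes 3 pairs and no test. AR7 and CA77 were the nearest pair for these genes. The median size of the log2 difference between them was 0.10, against 0.12 over all genes compared, and 22 of 32 genes were within the spot error, which 39.5% of all genes exceeded. No gene passed 1.5-fold between them (6.9% of all genes). Past 2 times the spot error 2 genes were higher with CA77 (8.12% of all genes), Edem2 by 0.54 and Ero1l by 0.38 on the log2 scale. The spot error puts an SD of 0.16 on each of these differences, with spots taken as independent, and leaves out variation between cultures. The values therefore do not show that AR7 and CA77 act alike.

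CA39 differed more from both. Between CA39 and AR7 the median size was 0.20, against 0.22 over all genes, and 27 of 32 genes were higher with CA39 (45.3% of all genes), with a median log2 difference of 0.18 against -0.03 over all genes. Herpud1 was 2.12 times as bright with CA39 as with AR7 (log2 difference 1.08), the gene of the list past 2-fold in this pair (5.13% of all genes on the high side, and 9.43% past 1.5-fold). On the low side past 1.5-fold were Ern1 (-0.74) and Ero1lb (-0.67), against 7.48% of all genes. Xbp1 was higher with CA39 by 0.58 and P4hb by 0.54 on the log2 scale.

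Between CA77 and CA39 the median size was 0.16, against 0.19 over all genes. Herpud1 with CA77 was at 0.485 times its CA39 intensity (log2 difference -1.04, where 4.5% of all genes were past 2-fold on the low side). Ero1lb was higher with CA77 by 0.82 and Ern1 by 0.57 on the log2 scale, the first past 1.5-fold (6.51% of all genes on the high side). Xbp1 (-0.54), Atf6 (-0.45) and P4hb (-0.43) were lower with CA77. The 2-fold calls of Herpud1 are close to their cutoff, and scaling each array to its 75th percentile put both below it (log2 differences from 0.95 to 1.08 against AR7 and from -1.05 to -0.92 against CA39 over all processings).

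For 7 of the 33 genes at least 1 further probe was detected on every array, which gives 27 comparisons of another probe with the brightest one. The probes had the same sign in 20 of them and differed by more than the spot error in 11. Herpud1, Hspa5, Sdf2l1, Creld2, Xbp1, Ern1, Ero1l and Ero1lb have 1 probe each, so their values have no such check.

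**Figure D5:**
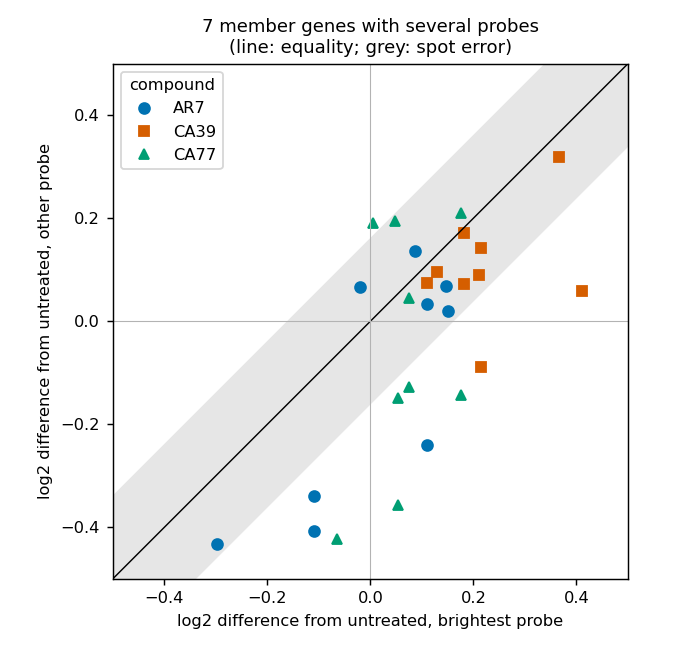
Log2 difference from untreated by another probe (vertical axis) against that by the brightest probe of the same gene (horizontal axis), for the 7 genes with several detected probes and all 3 compounds. The line is equality and the grey band is the spot error of 0.16 on either side of it. Of 27 points, 11 lie outside the band.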

How the data were processed

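RNA of 4 NIH-3T3 cultures was hybridised, 1 array per group. The authors deposited scanner output (Feature Extraction 10.7.3.1), which holds linear spot intensities with a local background for 62976 spots per array, and a series table, which on comparison equalled the background-subtracted intensity. Their methods name RMA values, not used here. Median spot intensity was corrected with normexp over all spots, control spots (leaving 59305) and 142 to 328 outlier spots per array were dropped, and arrays were quantile normalized and put on the log2 scale (limma 3.58.1, R 4.3.3, Python 3.11.15). No spot was saturated (0 on each array). Detection of a probe required the scanner's above-background mark on over 50% of its spots. Undetected values were raised to the lowest detected signal of their array if below it, pairs in which neither array detected a probe were not compared, and a pair in which only the dimmer reading was detected was given a difference of 0. Accessions were matched to RefSeq (GRCm38.p6), which named 27506 of 55378 probes. The array design cites mm9, so no probe coordinates are given. Of several probes, the one with the highest mean was used, and others are cited where they differ past the spot error.

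Spot error is the square root of 2 times the median SD over 399 probes printed 10 times. The number of arrays limits the precision. The scripts were tested on simulated data. The text covers all 33 genes, the PERK output genes, and genes of the second list past 1.5-fold with any compound. Members and lists were chosen with earlier results of these data known. Other processings varied background offset, scaling, source table, detection filter, floor, probe rule and slide position.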

Additional observations from a re-analysis of the deposited data

Results flagged for a closer look

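Several genes lay on opposite sides of the untreated level with 2 of the compounds, each past the spot error of 0.16 (log2). With 1 array per group these differences between compounds were not tested. Herpud1 was above untreated with CA39 and below it with AR7 and CA77, and the log2 difference was 1.08 for CA39 minus AR7 and -1.04 for CA77 minus CA39. Xbp1 had the same order, with 0.58 for CA39 minus AR7 and -0.54 for CA77 minus CA39. Ern1 ran in the opposite order, above untreated with AR7 and below it with CA39, with -0.74 for CA39 minus AR7. Ero1lb was below untreated with CA39 and above it with CA77, with 0.82 for CA77 minus CA39. Edem2 was above untreated with CA77 and below it with AR7 and CA39, with 0.54 for CA77 minus AR7 and 0.36 for CA77 minus CA39. Some of these lie close to the spot error. Over the other processings, the difference from untreated ranged from 0.14 to 0.18 for Ero1lb with CA77, from -0.18 to -0.07 for Edem2 with CA39 and from 0.14 to 0.32 for Xbp1 with CA39, so some processings put them within it.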

How the results depend on the processing

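The medians of the list, its arms and the second list were recomputed under 9 other processings, as were the counts of the list past 1.5-fold and 2-fold. The same was done for the differences of single genes of the list and of the PERK output. Genes with no probe in grid rows over 160 have 8 other processings. Against untreated, 53 of 54 counts, 185 of 189 medians and 1017 of 1035 single-gene differences stayed within 1.5 times (counts) or within the spot error, and no difference or median larger than 2 times the spot error changed sign. Between compounds, 46 of 54 counts, 185 of 189 medians and 999 of 1011 differences stayed within those limits. Past 2-fold, the count for CA39 minus AR7 and the count for CA77 minus CA39 were each 0 in place of 1 with 75th percentile scaling, of the processed signal and of the deposited table alike. Past 1.5-fold, the count for CA77 minus AR7 was 1 in place of 0 with 75th percentile scaling and with the quantile-normalized processed signal, and that for CA77 minus CA39 was 4 in place of 2 after subtracting the neighbours' median. Grid rows over 160 hold 19 of the 33 genes, and fewer genes then enter each value. There the 1.5-fold count was 1 in place of 2 for CA39 minus untreated and 1 in place of 2 for CA77 minus CA39. The sensor medians that changed sign there were 0.11 (AR7), -0.10 (CA39) and 0.14 (CA77) against untreated, -0.21 for CA39 minus AR7 and 0.24 for CA77 minus CA39. The disulfide enzyme medians there were 0.25 for CA39 minus untreated and 0.41 for CA39 minus AR7, and the degradation median was -0.28 for CA77 minus CA39. With the mean over probes, Eif2s1 changed sign to -0.041 for CA77 minus CA39 (0.33 with its brightest probe). Cultures could not be paired because each group has 1 array, and replicate spots were not paired by position.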
